A study of Mus musculus with 6 samples.

Results

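The microRNA processing and silencing machinery was followed through 8 genes, Drosha, Dgcr8, Dicer1, Tarbp2, Mov10, Tnrc6a, Tnrc6b and Tnrc6c, found by their symbols in the count files. All 8 had a row among the 23337 gene rows, and 8 of 8 passed the filter on low counts that left 13925 genes to test. RNA was sequenced from nuclei of cultured mouse neural precursor cells, dividing cells of the embryonic brain that can give rise to neurons and glia. There were 3 lines labelled Fmr1 WT (lines 3, 8 and 19) and 3 labelled Fmr1 KO (lines 3, 13 and 16), with a single library from each line. Fmr1 encodes FMRP, an RNA-binding protein that represses translation and has been found together with microRNA pathway proteins, and the comparison asks which nuclear RNAs differ between the genotypes. Cells of both groups came from the dorsal forebrain at E13.5 and were grown on Matrigel with B27, N2, EGF and basic FGF (20 ng/ml each) and heparin (5 ug/ml). All were used at passage 6 to 7 and about 80% confluency, and no treatment set the groups apart. Neither the knockout allele nor the number of embryos behind a line is given in the sources used here. The series' design text calls the lines independent, and p-values measure the spread between them.

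A microRNA begins as a hairpin within a long primary transcript. In the nucleus the microprocessor, made of the ribonuclease Drosha and its RNA-binding partner DGCR8, cuts the hairpin out, and in the cytoplasm the ribonuclease Dicer, helped by TRBP (the product of Tarbp2), removes its loop. A single strand is loaded into an Argonaute protein, which binds a TNRC6 (GW182) protein that in turn brings in deadenylases, so that target messages lose their poly(A) tails. The helicase MOV10 joins Argonaute complexes and unwinds target RNA. All values below are of nuclear RNA of these genes, not of their proteins.

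The microprocessor is known to cut hairpins in the Dgcr8 message itself. Exons of Dgcr8 hold 2 annotated hairpins, Mir1306 in the coding sequence and Gm24572 outside it, on the same strand. The sequence of Mir1306 (RefSeq, GRCm38.p6, chr16:18284239-18284317, minus strand) is shown because Dgcr8 had the largest fold change among the 8 genes, and capitals mark its mature arms.
Mir1306: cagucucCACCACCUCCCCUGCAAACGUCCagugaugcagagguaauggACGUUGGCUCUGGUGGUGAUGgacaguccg
The row of Mir1306 itself had 0 counts in all 6 libraries, and Gm24572 had no row. How reads on bases that belong to more than 1 gene were counted is not stated in the sources used here, so a 0 on such a row does not show that the hairpin went unread.

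The DNA before the start sites is shown for the microprocessor pair Drosha and Dgcr8, which were both higher in the libraries labelled KO, and for Tnrc6b, which was not called. In the table of RefSeq promoters (GRCm38.p6) all 8 genes matched, with 10 entries. CCAAT and its reverse complement ATTGG, whose matches can share bases (none shown here did), were searched in the 250 bases before each start, and capitals mark the matches. For Dgcr8 the 78 bases that the GENCODE gene model already counts as transcript are left out.
Drosha, chr15:12824565-12824814, plus strand: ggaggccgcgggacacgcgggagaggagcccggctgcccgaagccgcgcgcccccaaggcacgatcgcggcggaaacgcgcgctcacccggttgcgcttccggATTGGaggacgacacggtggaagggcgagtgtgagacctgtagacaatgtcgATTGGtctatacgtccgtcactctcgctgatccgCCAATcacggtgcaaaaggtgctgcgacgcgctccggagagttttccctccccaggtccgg
Dgcr8, chr16:18289247-18289418, minus strand: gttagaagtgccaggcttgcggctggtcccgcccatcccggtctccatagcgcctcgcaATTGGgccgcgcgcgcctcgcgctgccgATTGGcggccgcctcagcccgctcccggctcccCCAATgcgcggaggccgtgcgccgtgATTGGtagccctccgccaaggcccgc
Tnrc6b, chr15:80711063-80711312, plus strand: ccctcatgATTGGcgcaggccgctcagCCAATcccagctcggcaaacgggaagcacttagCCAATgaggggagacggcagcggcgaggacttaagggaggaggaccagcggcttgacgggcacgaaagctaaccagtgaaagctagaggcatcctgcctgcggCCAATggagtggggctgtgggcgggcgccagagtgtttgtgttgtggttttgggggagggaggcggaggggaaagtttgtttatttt
Drosha and Tarbp2 held 3 matches each, Dgcr8 and the upstream start of Tnrc6b held 4 each, and Dicer1 held 1. Neither start of Mov10 and none of the starts of Tnrc6a and Tnrc6c held a match, nor did the second start of Tnrc6b. Of all 32851 promoters in the table, 33.8% held at least 1 match, 2.79% at least 3 and 0.840% at least 4. Matches were thus found in called genes and in Tnrc6b, which was not called, while the called gene Tnrc6c held none. The 250 bases held 18 to 39 CG dinucleotides in the called genes and 5 to 14 in the others. The median over all promoters was 6, and 21.7% of all promoters held 18 or more, a cut taken from the values of the called genes. A part of either feature in the changes was not tested.

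Total counts ran from 18702738 to 26789522 per library. No 2 libraries matched within sampling noise. The chi-square of their counts over its degrees of freedom was 9.08 for WT line 3 with WT line 8 and 14.0 for KO line 13 with KO line 16, and at least 50.8 for WT line 19 or KO line 3 with any library of their own group. Xist, the RNA of the inactive X chromosome, was at 15783 to 19659 CPM of the unadjusted total in WT lines 3 and 8 and KO line 3 and at most 80.6 CPM in the other 3 libraries, so Xist-high lines were 2 of 3 in WT and 1 of 3 among the libraries labelled KO, and a covariate from Y-linked genes was among the alternative settings. The ribosomal RNA precursor Rn45s was at 18477 CPM in WT line 19 and at 1033 to 2597 CPM elsewhere. The part of either in the results was not tested beyond that covariate and the fits without these lines. Fmr1 itself measured 223, 269.7 and 273 CPM (each count over its library's total, adjusted by the trimmed mean of M values) in WT lines 3, 8 and 19, and 371, 188 and 153 CPM in KO lines 3, 13 and 16. The library labelled KO line 3 was thus above all WT libraries in the targeted gene, and its label is used below only as a label. The log2 fold change of Fmr1 was -0.10 (SE 0.29, edgeR quasi-likelihood adjusted p = 0.795), and -0.58 without KO line 3 (edgeR adjusted p = 0.00152). Calls of cell type markers stand beside 21.8% of all tested genes called higher and 20.4% called lower by edgeR. Neural precursor markers summed to 7627 to 8365 CPM in WT and 5750.4 to 6997 CPM in the libraries labelled KO (3 of 12 called lower). Astrocyte markers summed to 578 to 939 CPM against 187 to 239.7 CPM (6 of 9 called lower), neuron markers to 792 to 1001 CPM against 1081 to 1658 CPM (3 of 6 tested called higher), and oligodendrocyte lineage markers to 351 to 404 CPM against 414 to 603 CPM (3 of 6 tested called higher). Microglial, endothelial, fibroblast and erythroid markers summed to at most 16.7 CPM in any library (2 of 3 tested endothelial and mural markers and 1 of 2 fibroblast markers called higher). At 0 throughout were 1 microglial marker (Tmem119) and 3 erythroid markers (Hba-a1 and Hba-a2 among them). The part of these markers in the results below was not tested, and in bulk RNA a change in the share of cells of a type and a change in RNA per cell cannot be told apart.

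Of the 8 genes, 5 were higher in the libraries labelled KO and 0 were lower. The microprocessor genes Drosha and Dgcr8, the dicing genes Dicer1 and Tarbp2, and the silencing gene Tnrc6c rose, while Tnrc6a, Tnrc6b and Mov10 did not pass the test. The rises were moderate, from 1.30-fold in Dicer1 to 1.86-fold in Dgcr8. With edgeR's quasi-likelihood test (Benjamini-Hochberg adjusted p under 0.05) 42.3% of all tested genes were called, 21.8% higher and 20.4% lower, so these 5 of 8 (62.5%) stand beside a large background. The median log2 fold change of the 8 was 0.42, beside 0.01 over all tested genes. In the same 5 genes every library labelled KO was above every WT library, as in 28.6% of all tested genes, and the groups of the other 3 overlapped, while they did not in either direction in 54.3% of all tested genes. At an unadjusted p under 0.05, in DESeq2 and in limma-voom with and without sample weights the count was likewise 5 higher and 0 lower.

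**Figure D1:**
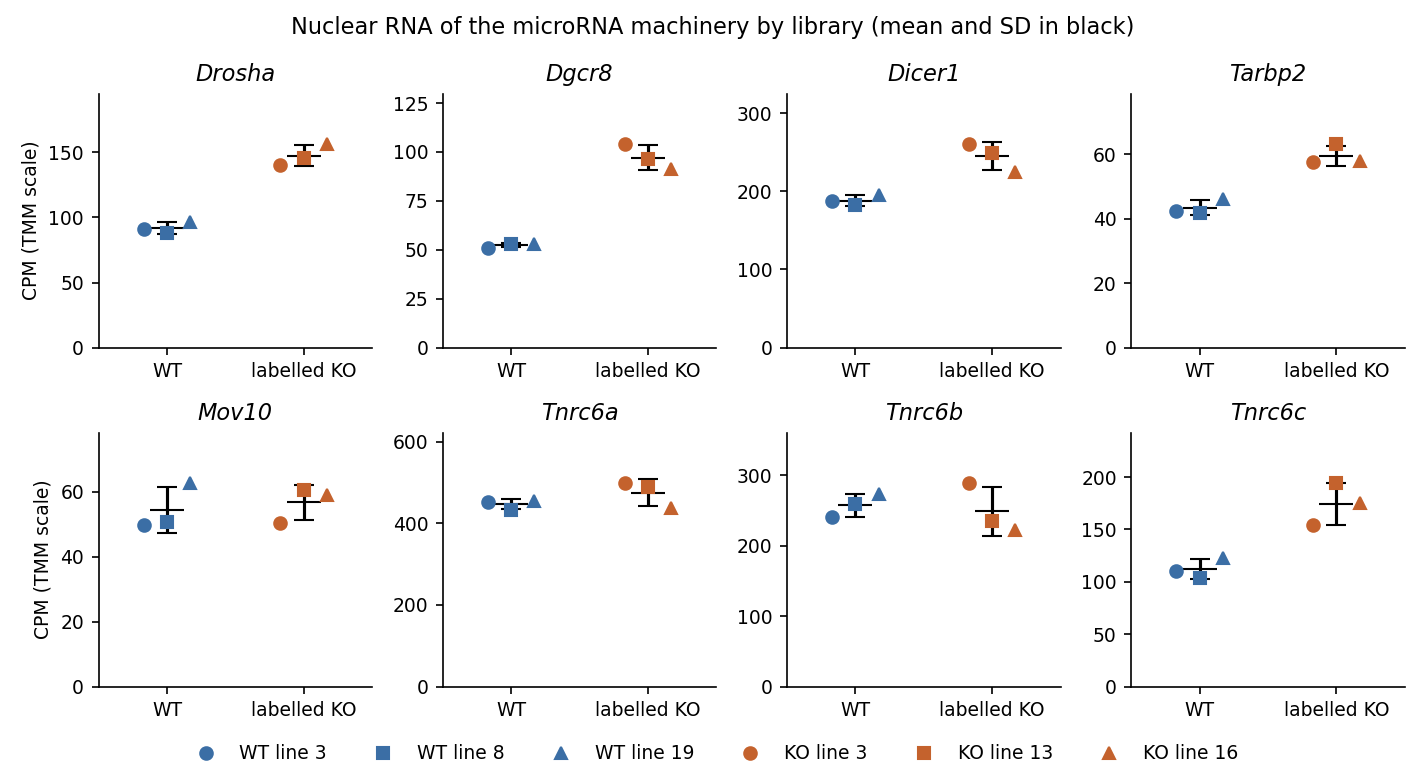
CPM of the 8 genes (vertical axes, on the adjusted library totals) in each of the 6 libraries, with axes that start at 0. Symbols are single lines, and black bars are the mean and SD of 3 libraries. The groups are apart in Drosha, Dgcr8, Dicer1, Tarbp2 and Tnrc6c and overlap in Mov10, Tnrc6a and Tnrc6b.

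Dgcr8 encodes the double-stranded RNA-binding subunit that recognises the hairpin. Its gene lies on chromosome 16 (18253948 to 18289246, minus strand, GRCm38, ENSMUSG00000022718.12). It measured 51.1, 52.9 and 53.1 CPM in WT lines 3, 8 and 19, and 104, 96.3 and 91.2 CPM in KO lines 3, 13 and 16. The WT libraries lay close together, and the lowest library labelled KO was far above them. Dgcr8 rose from 52.4 ± 1.07 to 97.2 ± 6.36 CPM (SD, n = 3 each), and edgeR put the log2 fold change at 0.89 (SE 0.10, 95% interval 0.66 to 1.12, adjusted p = 0.00023). Over 17 alternative settings it ran from 0.84 to 0.94 and passed in all 17. Exons of Dgcr8 share 904 bases with the neighbouring gene Trmt2a and with Mir1306, which lies within Dgcr8, so some reads there may not be of Dgcr8 alone. Trmt2a, which encodes a tRNA methyltransferase, went from 114 ± 7.09 to 139 ± 14.9 CPM (SD, n = 3 each) with a log2 fold change of 0.29 (SE 0.11) that did not pass edgeR's test (adjusted p = 0.0677).

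Drosha encodes the ribonuclease of the microprocessor. Its gene lies on chromosome 15 (12824815 to 12935291, plus strand, GRCm38, ENSMUSG00000022191.16), and no other counted gene shares its exons. The WT libraries measured 91.4, 87.7 and 96.7 CPM in lines 3, 8 and 19, and the libraries labelled KO 140.3, 146 and 156 CPM in lines 3, 13 and 16. All libraries labelled KO were above all WT libraries, with a gap between the groups wider than either group. Drosha rose from 91.9 ± 4.51 to 147 ± 7.96 CPM (SD, n = 3 each), a log2 fold change of 0.68 (SE 0.10, 95% interval 0.46 to 0.90, edgeR adjusted p = 0.000839). It passed in all 17 alternative settings, with values from 0.62 to 0.75.

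Dicer1 encodes the ribonuclease that removes the hairpin loop, and its gene lies on chromosome 12 (104687742 to 104751952, minus strand, GRCm38, ENSMUSG00000041415.10). It was at 187, 182 and 195 CPM in WT lines 3, 8 and 19, and at 260.0, 249 and 225 CPM in KO lines 3, 13 and 16. KO line 16 was nearest to the WT range, and the groups did not overlap. From 188 ± 6.74 CPM in WT, Dicer1 rose to 245 ± 18.1 CPM (SD, n = 3 each), a log2 fold change of 0.38 (SE 0.10, 95% interval 0.15 to 0.61, edgeR adjusted p = 0.0153), the smallest change among the 5 called genes. The call was lost when WT line 3 was left out (log2 fold change 0.37, edgeR adjusted p = 0.0778), when WT line 8 was (0.35, adjusted p = 0.0616) and when KO line 13 was (0.37, adjusted p = 0.0586). It held in the other 14 of 17 settings, and the log2 fold change ran from 0.27 to 0.45 over all 17.

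Tarbp2 encodes TRBP, the double-stranded RNA-binding partner of Dicer, and lies on chromosome 15 (102518192 to 102523676, plus strand, GRCm38, ENSMUSG00000023051.11). Values were 42.3, 41.9 and 46.0 CPM in WT lines 3, 8 and 19, and 57.5, 63.0 and 57.9 CPM in KO lines 3, 13 and 16. The groups were apart by more than the width of either. Tarbp2 rose from 43.4 ± 2.24 to 59.5 ± 3.07 CPM (SD, n = 3 each), with a log2 fold change of 0.46 (SE 0.10, 95% interval 0.23 to 0.68, edgeR adjusted p = 0.00677). Without WT line 3 the log2 fold change was 0.43 and just missed the threshold (edgeR adjusted p = 0.0524), and the call held in the other 16 settings. Without WT line 3 the number of the 8 genes called higher was thus 3, and the number of all genes called higher was 1994 against 3040.

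The TNRC6 genes encode the paralogous scaffold proteins between Argonaute and the deadenylases, and only Tnrc6c passed the test. Tnrc6c (chromosome 11, 117654289 to 117763439, plus strand, GRCm38, ENSMUSG00000025571.13) measured 111, 104 and 122 CPM in WT lines 3, 8 and 19, and 154, 194 and 175 CPM in KO lines 3, 13 and 16. KO line 3 was the lowest of its group and was still above every WT library. Tnrc6c rose from 112 ± 9.44 to 174 ± 19.8 CPM (SD, n = 3 each), by a log2 fold change of 0.63 (SE 0.12, 95% interval 0.36 to 0.90, edgeR adjusted p = 0.00305). Its value ran from 0.47 with GC and length trends removed to 0.78 without WT line 19 and KO line 3, and it passed in all 17 settings.

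Tnrc6a (chromosome 7, 123123885 to 123195296, plus strand, GRCm38, ENSMUSG00000052707.8) measured 453, 432 and 455 CPM in WT lines 3, 8 and 19, and 498, 489 and 438 CPM in KO lines 3, 13 and 16. The groups overlapped through KO line 16. The log2 fold change was 0.09 (SE 0.10, 95% interval -0.14 to 0.32, edgeR adjusted p = 0.505), between means of 446 ± 12.6 and 475 ± 32.1 CPM (SD, n = 3 each). Its interval overlapped that of Dicer1 (0.15 to 0.61), and the difference between these genes was not tested.

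Tnrc6b (chromosome 15, 80711313 to 80941085, plus strand, GRCm38, ENSMUSG00000047888.10) was at 240.1, 259.7 and 273 CPM in WT lines 3, 8 and 19, and at 288, 235 and 223 CPM in KO lines 3, 13 and 16. KO line 3 was the highest of all 6 libraries and KO lines 13 and 16 were the lowest. Means were 257 ± 16.4 and 249 ± 34.9 CPM (SD, n = 3 each), and the log2 fold change of -0.05 (SE 0.12, 95% interval -0.33 to 0.23) did not pass edgeR's test (adjusted p = 0.773). Its sign turned without KO line 16, at 0.03. Exons of Tnrc6b share 82 bases with the microRNA gene Mir5113, whose row was at 0 in all libraries, with the same limit as for Mir1306.

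Mov10, the RNA helicase gene (chromosome 3, 104794836 to 104818563, minus strand, GRCm38, ENSMUSG00000002227.15), measured 49.9, 50.8 and 62.6 CPM in WT lines 3, 8 and 19, and 50.5, 60.7 and 59.1 CPM in KO lines 3, 13 and 16. WT line 19 was the highest of all libraries, and KO line 3 lay among the lower WT libraries. The group means, 54.4 ± 7.13 and 56.7 ± 5.49 CPM (SD, n = 3 each), differed by less than the spread within either group, and the log2 fold change was 0.06 (SE 0.13, 95% interval -0.23 to 0.35, edgeR adjusted p = 0.733). Without WT line 19 and KO line 3, the libraries that stood apart, it was 0.25 (edgeR adjusted p = 0.0616), and its sign turned with GC and length trends removed (-0.05) and, at a value near 0, without WT line 3.

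**Figure D2:**
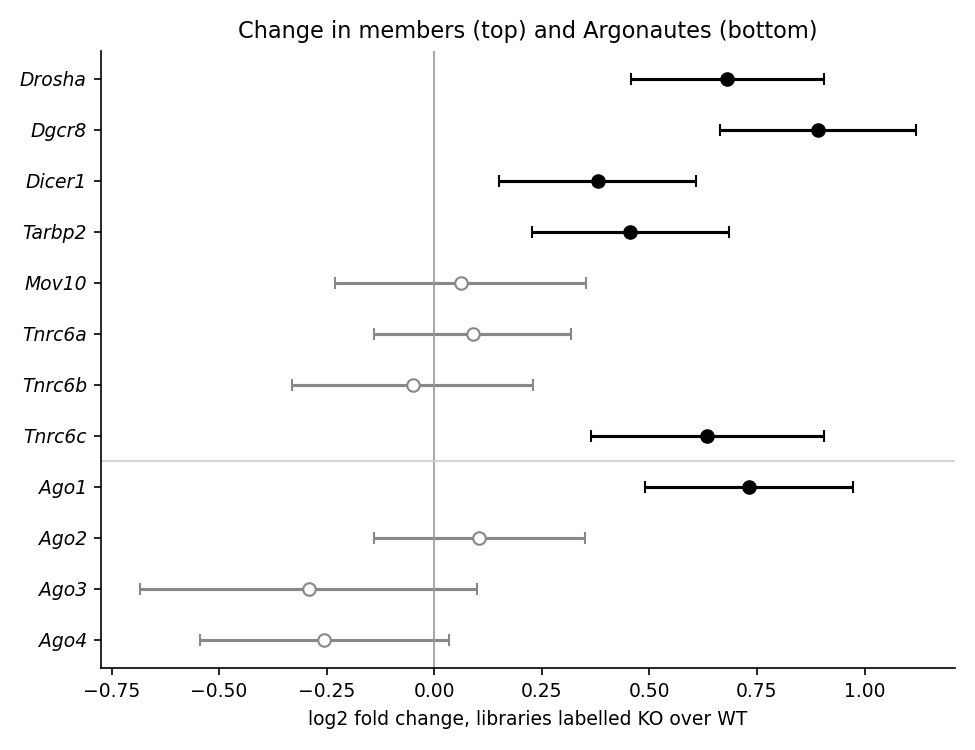
Log2 fold change of the 8 genes (top) and the 4 Argonaute genes (bottom), libraries labelled KO over WT, from edgeR's quasi-likelihood fit over 6 libraries. Points are estimates, bars are 95% intervals, and filled points passed an adjusted p of 0.05. Dgcr8 is farthest to the right at 0.89, and the intervals of Tnrc6a, Tnrc6b, Mov10, Ago2, Ago3 and Ago4 include 0.

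Other library size factors and filters moved the 8 genes little. Removing GC and length trends lowered all 8 log2 fold changes, to 0.27 for Dicer1, 0.47 for Tnrc6c and -0.18 for Tnrc6b. The median over all tested genes was then 0.065. Limma-voom with sample weights put Tnrc6c at 0.73 and Mov10 at 0.17. Of 136 values (8 genes under 17 alternative settings), 129 kept both the direction and the side of the threshold, 4 lost the call (Dicer1 in 3 settings and Tarbp2 in 1) and 3 changed sign in genes that were not called. Without WT line 19 and KO line 3 together, the log2 fold changes were 0.85 for Dgcr8, 0.75 for Drosha, 0.78 for Tnrc6c, 0.52 for Tarbp2 and 0.36 for Dicer1, and all 5 stayed past the threshold.

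**Figure D3:**
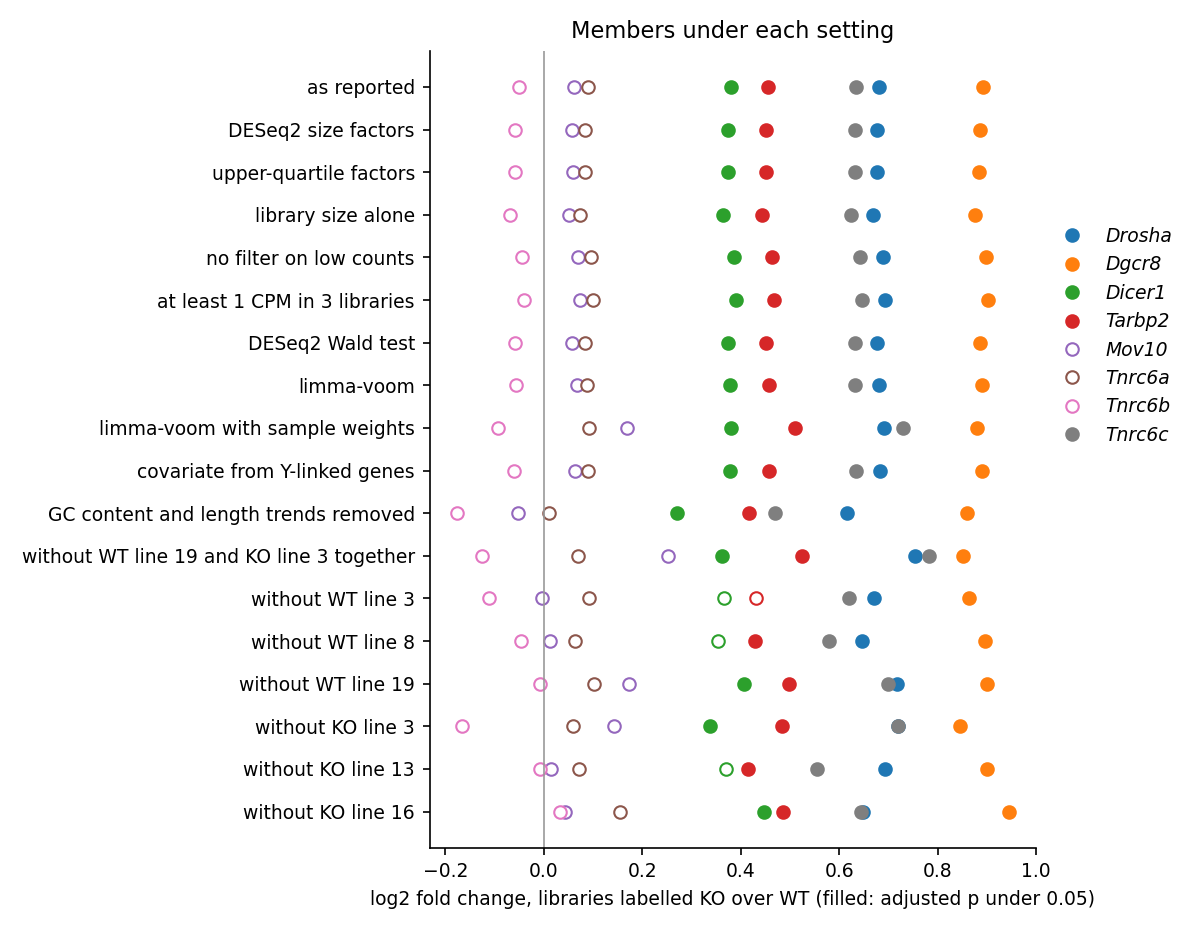
Log2 fold change of each gene (horizontal axis, libraries labelled KO over WT) under the reported fit and 17 alternative settings (rows). Filled points passed an adjusted p of 0.05, and open ones did not. Dgcr8, Drosha and Tnrc6c are filled in every row, Dicer1 is open in 3 rows and Tarbp2 in 1.

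Ratios between partner genes within a library do not depend on how libraries are scaled. In 5 pairs of partners or paralogs the log2 ratio of counts was compared between groups by a two-sided exact permutation test, in which 3 libraries against 3 cannot give a p below 0.1. Drosha over Dgcr8 was 0.84, 0.73 and 0.87 in WT lines 3, 8 and 19, and 0.43, 0.60 and 0.77 in KO lines 3, 13 and 16. The groups overlapped through KO line 16, and the mean difference of -0.21 had an exact permutation p of 0.2. Dicer1 over Tarbp2 was 2.12 ± 0.03 in WT and 2.04 ± 0.12 in the libraries labelled KO (SD, n = 3 each, exact permutation p = 0.4). The rises in the paired genes were therefore not told apart by these ratios at this number of lines.

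Among the TNRC6 genes, both ratios that involve Tnrc6c had groups apart. Tnrc6c over Tnrc6b was -1.12, -1.32 and -1.15 in WT lines 3, 8 and 19, and -0.90, -0.28 and -0.35 in KO lines 3, 13 and 16. The groups did not overlap, with KO line 3 nearest to WT, and the mean difference was 0.69 (exact permutation p = 0.1, the smallest possible). Tnrc6a over Tnrc6c fell by 0.54 on the log2 scale, from 1.99 ± 0.09 to 1.45 ± 0.21 (SD, n = 3 each), also without overlap and at the smallest possible exact permutation p of 0.1. Tnrc6a over Tnrc6b was 0.80 ± 0.10 and 0.94 ± 0.14 (SD, n = 3 each), with overlapping groups and an exact permutation p of 0.2. After Benjamini-Hochberg adjustment over the 5 pairs, the exact permutation p-values were 0.25 for 4 pairs and 0.4 for Dicer1 over Tarbp2, so no pair passed a threshold that the design could not reach.

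**Figure D4:**
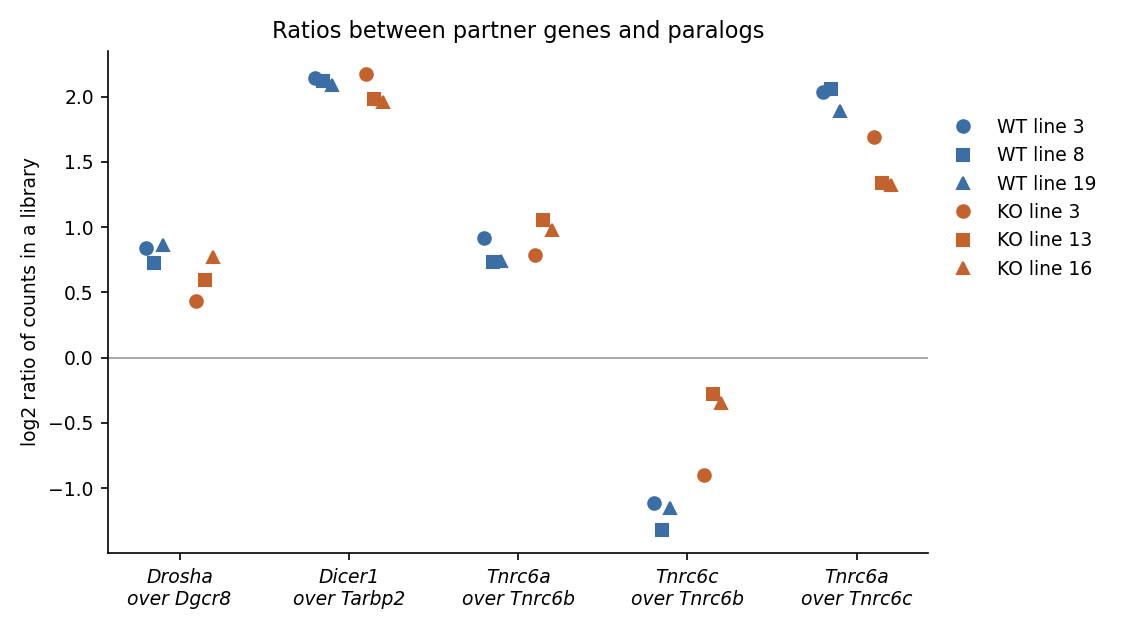
Log2 ratio of the counts of gene pairs within each of the 6 libraries (vertical axis), with symbols for single lines. Groups are apart for Tnrc6c over Tnrc6b and for Tnrc6a over Tnrc6c, and KO line 3 lies nearest to WT in both. The groups of the other 3 pairs overlap.

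To set genes beside each other, CPM were divided by the length of all exons in kilobases (GENCODE, GRCm38). On this scale Tnrc6a had the highest level in both groups, at 35.1 ± 0.99 CPM per kilobase in WT and 37.4 ± 2.53 in the libraries labelled KO (SD, n = 3 each). Drosha followed at 15.5 ± 0.76 and 24.8 ± 1.34 CPM per kilobase, and Dicer1 at 11.2 ± 0.40 and 14.6 ± 1.08. In WT the next levels were 10.9 for Tnrc6b, 9.71 for Mov10, 9.54 for Tarbp2, 8.75 for Tnrc6c and 6.81 ± 0.14 CPM per kilobase for Dgcr8. The ranges of Dicer1, Tnrc6b, Mov10, Tarbp2 and Tnrc6c overlapped from each to the next, while Dgcr8 was below Tnrc6c without overlap. In the libraries labelled KO the order after Dicer1 was Tnrc6c (13.6), Tarbp2 (13.1), Dgcr8 (12.6), Tnrc6b (10.5) and Mov10 (10.1 CPM per kilobase), and each neighbouring pair overlapped. On this scale Dgcr8, the lowest of the 8 in WT, thus ranked 6 of 8 in the libraries labelled KO, and Mov10 was last. The order depends on the exon lengths used, and the annotation behind the counts is not given. By CPM alone Tarbp2 was lowest in WT (43.4 CPM) and Mov10 in the libraries labelled KO (56.7 CPM).

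**Figure D5:**
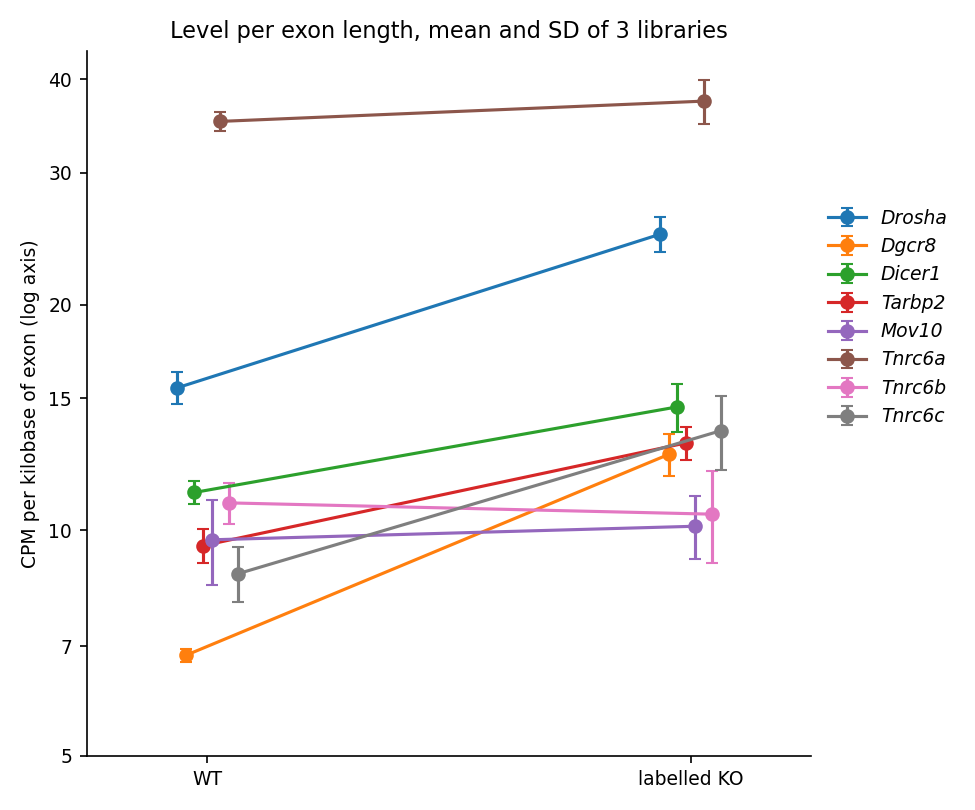
Level per kilobase of exon in CPM (vertical log axis) of the 8 genes in WT and in the libraries labelled KO. Points are means and bars SD of 3 libraries, and lines join the same gene. Tnrc6a is on top at 35.1 and 37.4, and Dgcr8 goes from 6.81 to 12.6 CPM per kilobase.

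Within the TNRC6 family, on the same scale, Tnrc6a made up 64.2 ± 1.28% of the summed level in WT and 60.8 ± 0.93% in the libraries labelled KO (SD, n = 3 each). Tnrc6b made up 19.9 ± 1.08% and 17.1 ± 1.90%, and Tnrc6c 15.96 ± 0.777% and 22.1 ± 2.74%. On this scale Tnrc6c was below Tnrc6b in every WT library and in KO line 3 (18.97% against 19.22%). It was above Tnrc6b in KO lines 13 and 16. Counts not divided by length put Tnrc6c below Tnrc6b in every library. They were 4589 against 5564 in KO line 13 and 4075 against 5189 in KO line 16. The order in those lines thus depends on the exon lengths used.

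For each gene that rose, the tested genes nearest in profile were taken from 9751 genes with a mean of at least 10 CPM, by the Euclidean distance between log2 CPM over the 6 libraries, each centred on its mean. Tnrc6c had the closest neighbour, Zfhx2 at a distance of 0.0446, followed by Zfp653 at 0.0676. Mettl17 (0.0534) and Cc2d1b (0.0553) were nearest to Tarbp2, Cdk2 (0.0619) and Msl1 (0.0643) to Dicer1, and Daxx (0.0629) and Pola2 (0.0641) to Drosha. For Dgcr8 the nearest were Cirbp, an RNA-binding protein gene, at 0.104 and 5730590G19Rik at 0.106. Among these 10 nearest genes of the 5 that rose, none was one of the 8, which says little when 9751 genes were searched.

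The Argonaute genes, whose products carry the microRNA and bind TNRC6 proteins, were listed under their older symbols Eif2c1 to Eif2c4. Of these 4 genes, 1 rose and 0 fell by edgeR's test, with 0 lower also in DESeq2, in limma-voom and at an unadjusted p under 0.05, and 1 lower in limma-voom with sample weights. This 1 of 4 stands beside 42.3% of all tested genes called and 21.8% called higher. Ago1 measured 170.1, 168 and 195 CPM in WT lines 3, 8 and 19, and 279, 312 and 295 CPM in KO lines 3, 13 and 16. The groups were far apart, and edgeR's log2 fold change of 0.73 (SE 0.11, adjusted p = 0.000865) was near that of Drosha. Ago2, the Argonaute that cuts fully paired targets, was at 174 ± 12.7 and 188 ± 15.3 CPM (SD, n = 3 each), with edgeR's log2 fold change at 0.10 (SE 0.11, adjusted p = 0.464), which turned to -0.03 with GC and length trends removed. Exons of Ago2 share 219 bases with Chrac1. Ago3 was at 71.8, 80.8 and 87.8 CPM in WT lines 3, 8 and 19, and at 82.0, 64.1 and 50.4 CPM in KO lines 3, 13 and 16. KO line 3 lay within the WT range and the other libraries labelled KO lay below it, and edgeR gave -0.29 on the log2 scale (SE 0.17, adjusted p = 0.205), or -0.48 without KO line 3 (adjusted p = 0.0059). Ago4 was below every WT library in all 3 libraries labelled KO, at 26.1 ± 1.08 and 21.9 ± 2.93 CPM (SD, n = 3 each), but did not pass (log2 fold change -0.26, SE 0.13, edgeR adjusted p = 0.137). Per kilobase of exon the Argonautes kept 1 order in both groups, Ago1, Ago2, Ago3 and Ago4, at 21.9, 12.4, 4.84 and 3.76 CPM per kilobase in WT.

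Genes that act before and after the 8 were counted in 5 wider lists, beside 21.8% of all tested genes called higher and 20.4% called lower. Of 17 cofactors of the microprocessor, 8 rose and 0 fell (median log2 fold change 0.30), among them Safb (0.63), which encodes a chromatin-associated RNA-binding protein, Srrt (0.56), which links the cap-binding complex to primary microRNAs, and Ilf2 (0.51). Of 6 genes of export and dicing, 1 rose and 0 fell (median 0.13). This was Xpo5, the exporter of precursor microRNAs, at a log2 fold change of 0.37 (edgeR adjusted p = 0.021), and its call was lost without WT line 3 (0.31), WT line 8 (0.37), KO line 13 (0.36) or KO line 16 (0.35). The other genes named by the rule in that list, Ran (0.33) and Tsnax (0.15), did not pass. Of 11 tested genes of precursor control and turnover, 2 rose and 0 fell (median 0.04). Lin28b, which encodes a repressor of let-7 processing, had only 3, 1 and 2 counts in WT lines 3, 8 and 19, and 25, 14 and 11 in KO lines 3, 13 and 16, and Dis3l2, an exonuclease gene, had a log2 fold change of 0.60, a call lost without WT line 3 (0.52). Pnpt1, in the same list, had -0.34 and did not pass, though it did without KO line 3 (-0.50). Lin28a, the paralog of Lin28b, had 2 to 22 counts per library and was not tested.

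Of 27 genes of deadenylation and decapping, which act after TNRC6 recruitment, 11 rose and 0 fell (median log2 fold change 0.26), with 6 higher when WT line 3 was left out and 2 lower without KO line 3. Pabpc4 (0.64), a poly(A)-binding protein gene, Gigyf1 (0.56), a translation repressor gene, and Cnot10 (0.51), a subunit of the CCR4-NOT deadenylase, had the smallest p-values. Of 14 tested genes whose products associate with the silencing complex, 3 rose and 0 fell (median 0.08), and these were the LIM-domain genes Wtip (1.13), Limd1 (0.70) and Ajuba (0.52). At an unadjusted p under 0.05 the number lower was 0 for the microprocessor cofactors, export and dicing, and silencing complex lists, and 1 each for precursor control and for deadenylation. DESeq2 and limma-voom each called 1 deadenylation gene lower and 0 in the other 4 lists, and limma-voom with sample weights called 0 microprocessor cofactors, 1 export, 2 precursor control, 2 deadenylation and 1 silencing complex gene lower. By edgeR's test all calls in the 5 lists were higher. Their shares ran from 16.7% for export and dicing to 47.1% for the microprocessor cofactors. Over all tested genes 21.8% were called higher and 20.4% lower, or 42.3% in either direction.

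Transcripts that hold microRNA hairpins, the substrates of Drosha and DGCR8, went in both directions. Of 11 tested noncoding hosts 3 rose and 2 fell (median log2 fold change -0.16), and of 16 tested coding hosts 9 rose and 0 fell (median 0.34), with 0 coding hosts lower also in DESeq2, in limma-voom and at an unadjusted p under 0.05, and 1 in limma-voom with sample weights. The shares called, 45.5% of noncoding and 56.2% of coding hosts, stand beside 42.3% of all tested genes, of which 21.8% were called higher and 20.4% lower. Without KO line 3 the numbers lower were 5 and 2, and the number of noncoding hosts lower was 1 without WT line 19, KO line 13 or KO line 16. Mir22hg, the host of miR-22, was at 54.1, 51.6 and 55.9 CPM in WT lines 3, 8 and 19, and at 20.7, 20.8 and 18.7 CPM in KO lines 3, 13 and 16, far below WT in every library (log2 fold change -1.42, SE 0.10, edgeR adjusted p = 3.36e-05). Mir17hg, the host of the miR-17-92 cluster, went from 19.2 ± 4.62 CPM up to 47.0 ± 17.5 CPM, or 1.29 on the log2 scale (SE 0.27, edgeR adjusted p = 0.00494), and Mcm7, a replication helicase gene that hosts a related cluster in an intron, from 107 ± 10.2 CPM up to 196 ± 20.5 CPM, or 0.87 (SE 0.12, edgeR adjusted p = 0.00064; SD, n = 3 each). Evl, the host of miR-342, rose by a log2 fold change of 1.01. Arpp21, the host of a miR-128 copy, had 4 counts in each WT library and 42, 56 and 52 in KO lines 3, 13 and 16, and Mir124a-1hg, the host of a miR-124 copy, had 8, 1 and 2 counts in WT lines 3, 8 and 19 and 50, 60 and 48 in KO lines 3, 13 and 16.

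The mature microRNAs of the Mir17hg and Mcm7 transcripts (RefSeq, GRCm38.p6) are shown because both hosts rose and their microRNAs share seeds. Capitals mark the seed, bases 2 to 8.
miR-17-5p (Mir17hg): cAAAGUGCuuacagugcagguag
miR-20a-5p (Mir17hg): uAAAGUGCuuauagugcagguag
miR-106b-5p (Mcm7): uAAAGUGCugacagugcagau
miR-93-5p (Mcm7): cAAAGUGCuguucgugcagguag
miR-92a-3p (Mir17hg): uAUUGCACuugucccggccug
miR-25-3p (Mcm7): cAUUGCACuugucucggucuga
miR-18a-5p (Mir17hg): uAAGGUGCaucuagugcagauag
miR-19a-3p (Mir17hg): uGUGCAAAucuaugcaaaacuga
miR-19b-3p (Mir17hg): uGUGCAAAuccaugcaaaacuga
The seeds AAAGUGC and AUUGCAC occur in both hosts, and those of miR-18a-5p and of the miR-19 pair occur only in Mir17hg among these. All 6 of the Mir17hg hairpins lie inside the GENCODE gene, while the RefSeq model holds 1 of 6. Counts of host transcripts do not give the level of the mature microRNAs, which was not measured here.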

How the data were processed

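For each of the 6 nuclear RNA libraries the deposited file holds unnormalized counts, 1 per gene symbol, as made by the authors. The submitters' processing notes name the build mm10 and the tools HTSeq 0.7.2, STAR, cutadapt 1.14 and DESeq2. No annotation, strand setting or tool order is given in the sources used here. Whether reads of genes on opposite strands were told apart is therefore not known. Groups came from the sample titles. From these deposited counts, genes were kept by filterByExpr, library totals adjusted with TMM factors (trimmed mean of M values), and the groups labelled KO and WT compared with edgeR 4.0.16 (R 4.3.3) in a robust quasi-likelihood fit over 6 libraries, two-sided, with Benjamini-Hochberg adjustment over 13925 genes and a threshold of 0.05. A standard error was derived from the F statistic, and intervals are at 95%. Single-gene CPM are on the scaled library size, in which 1 count was worth 0.0373 to 0.0535 CPM of the unscaled total. Ratios were compared by exact permutation (scipy 1.17.1).

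Alternatives were the size factors of DESeq2 1.42.0, upper-quartile factors, library size alone, no filter or at least 1 CPM in 3 libraries, the DESeq2 Wald test, limma-voom (limma 3.58.1) without and with sample weights, a covariate from Y-linked genes, GC and length trends removed by loess (span 0.5), each library left out, and WT line 19 and KO line 3 left out together. The scripts were tested on simulated data. Genes named are Fmr1, the 8 genes, the Argonautes, the 3 smallest p-values of each other list plus Lin28a and Lin28b, and the 2 nearest profiles of each called gene; Trmt2a was added for its overlap with Dgcr8. The genes and lists were chosen with earlier results of these data known. Older symbols were matched through the RefSeq gene table of GRCm38, and positions and exon lengths came from GENCODE mouse release 21.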

Additional observations from a re-analysis of the deposited data

How the results depend on the processing

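The 5 calls among the 8 genes kept their direction in all 17 alternatives, and the number called higher ranged from 3 (without WT line 3) to 5 with 1 library left out, with 0 lower throughout. Over all genes the number called higher ranged from 1994 (without WT line 3) to 3666 (without KO line 3). Signs changed in genes that were not called: Fmr1 (0.084 with GC and length trends removed, and -0.58 to 0.14 with 1 library left out, turning without KO line 13 or 16), Mov10 (-0.052 with those trends removed, and -0.0041 to 0.17 with 1 library left out), Tnrc6b (-0.17 to 0.032 with 1 library left out, turning without KO line 16) and Ago2 (-0.026 with those trends removed). Without WT line 19 and KO line 3 together, the change in Tnrc6a over Tnrc6c was -0.71 against -0.54. The cause was not tested in any of these.

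Small counts in the wider lists moved as follows. Under limma-voom with sample weights the numbers lower were 1 for Argonautes, export and dicing, silencing complex and coding hosts, 2 for precursor control and deadenylation, and 4 for noncoding hosts. Without WT line 19 and KO line 3 together they were 1 for Argonautes, microprocessor cofactors and export, 2 for precursor control, deadenylation, silencing complex and coding hosts, and 5 for noncoding hosts. With GC and length trends removed, 1 microprocessor cofactor and 1 precursor control gene were lower, and 2 export and 4 precursor control genes were higher. With the Y-linked covariate 2 export genes were higher, and 1 gene each of precursor control, deadenylation and coding hosts was lower. At least 1 CPM in 3 libraries left 1 precursor control gene higher. DESeq2 size factors, upper-quartile factors, library size alone, no filter, the DESeq2 Wald test and limma-voom each called 1 deadenylation gene lower. Leaving out 1 library at a time, the numbers lower ranged from 0 to 1 for Argonautes, export and silencing complex, from 0 to 2 for precursor control, deadenylation and coding hosts, and from 1 to 5 for noncoding hosts, and the numbers higher from 0 to 1 for export, from 1 to 2 for precursor control and from 6 to 14 for deadenylation. Single microRNA rows called higher and lower were 3 and 1 in edgeR, 3 and 2 in DESeq2, 3 and 3 in limma-voom, and 6 and 7 with sample weights.

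No paired analysis was possible because the groups share only 1 line number. With 3 lines a group the change in Dicer1 passed edgeR's test (adjusted p = 0.0153). With 2 lines in a group its call was lost in some fits, those without WT line 3, WT line 8 or KO line 13. Genes with few counts, such as Lin28b, carry wide intervals.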

Other observations

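Rows of single microRNA genes were few and shallow. Of 661 such rows, 264 had a count in some library and 41 had enough to be tested, of which 3 were higher and 1 was lower in the libraries labelled KO by edgeR's quasi-likelihood test, or 9.76% called beside 42.3% of all tested genes. Mir25, which lies within Mcm7, had 65, 42 and 52 counts in WT lines 3, 8 and 19, and 107, 111 and 149 in KO lines 3, 13 and 16. All libraries labelled KO were above all WT libraries, and the log2 fold change was 1.20 (SE 0.20, edgeR adjusted p = 0.00168), beside 0.87 for Mcm7 itself. Mir568 had 44, 24 and 33 counts in WT lines 3, 8 and 19, and 13, 15 and 12 in KO lines 3, 13 and 16 (log2 fold change -1.32, SE 0.28, edgeR adjusted p = 0.0054). Mir1949 had a log2 fold change of 0.74 (edgeR adjusted p = 0.0188), a call lost without WT line 3 (0.72), WT line 19 (0.72) or KO line 13 (0.57). Counts on such a row may include reads of the primary and host transcript, so they do not measure the mature microRNA.

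The genes encoding small C-terminal domain phosphatases that host miR-26 were named after their values were seen. Ctdspl, Ctdsp1 and Ctdsp2 all rose, from 27.2 to 35.3 CPM in WT to 48.7 to 55.3 CPM in the libraries labelled KO for Ctdspl, with log2 fold changes of 0.76 (SE 0.12), 0.55 (SE 0.11) and 0.36 (SE 0.12). The call of Ctdsp2 (edgeR adjusted p = 0.0398) was lost without WT line 3 (0.32), WT line 8 (0.28), KO line 13 (0.37) or KO line 16 (0.35). Their microRNAs (RefSeq, GRCm38.p6) share a seed, in capitals.
miR-26a-5p (Ctdspl and Ctdsp2): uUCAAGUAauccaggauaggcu
miR-26b-5p (Ctdsp1): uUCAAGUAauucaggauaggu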
